A study of Mus musculus with 2 samples.

Results

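The apical polarity and Numb genes are 10 mouse genes that build and read the apical side of an epithelium: Pard3, Pard6a, Pard6b, Prkci, Crb2, Llgl1, Numb, Numbl, Prom1 and Tjp1. They were taken by symbol from the reference annotation of the mm10 assembly, and all 10 were found among the 43346 genes of the deposited tables. The study sequenced total RNA of the embryonic midbrain, dissected at E11.5 (embryonic day 11.5) from the mouse strain B6NCrl. Its 2 biological replicates form 1 group with no treatment, genotype or second condition: 109 embryos were pooled for replicate 1 and 88 for replicate 2, with both sexes in each. Each library was made from 10 ng of RNA longer than 200 nt. The tables held 38884247 and 45975100 expected counts (estimated reads) on genes in replicates 1 and 2. Levels are in TPM, an abundance scaled by transcript length and library, printed as deposited for each library or as mean ± SD (n = 2).

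At this age the midbrain wall holds a neuroepithelium, a layer of elongated progenitors whose apical ends line the ventricle and are joined by adherens junctions. The tissue sequenced held neurons and other cells as well, as the marker genes below show. The PAR complex (PAR3, PAR6 and an atypical protein kinase C) and the Crumbs complex set up the apical domain, and LGL proteins oppose the kinase from the basolateral side. NUMB and NUMBL are endocytic adaptor proteins known for inhibiting NOTCH and for supporting the junctions of neural progenitors. Prominin-1 sits in apical membrane protrusions and is a marker of neural stem cells, and ZO-1, the product of Tjp1, is a scaffold under tight and adherens junctions.

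Otx2, a homeobox gene of forebrain and midbrain, had 169 and 171 TPM, the midbrain genes En1 and En2 were above 1 TPM in both libraries, and none of 4 Hox genes of the hindbrain and spinal cord reached 1 TPM. Neural progenitor genes (Sox2, Vim, Fabp7, Nes) and neuron genes (Tubb3, Stmn2, Dcx) were all above 30 TPM in both libraries. Markers of other cells were also present, some of which make apical or junctional proteins. The 4 endothelial genes summed to 73.9 and 71.1 TPM and the 4 surface epithelium genes to 21.2 and 22.1 TPM, with all 8 above 1 TPM in both libraries. The 3 mesenchyme genes summed to 580 and 544 TPM, and of 3 choroid plexus genes only Folr1 (8.89 and 9.53 TPM) reached 1 TPM in both libraries. Of 3 microglia genes 2 did, and the 3 erythroid genes summed to 10801 and 10821 TPM. How much these cells added to the levels below was not tested, and in bulk tissue fewer cells of a type and less RNA per cell cannot be told apart.

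All 10 genes were present, and they covered an 18.5-fold range from Prom1 (102 ± 1.37 TPM) to Pard6b (5.53 ± 0.834 TPM). Each reached 1 TPM in both libraries, which 32.1% of all genes in the tables did, and 9 of 10 reached 5 TPM in both, against 24.0% of all genes. Their median was 19.1 TPM, beside 16.4 TPM for the 13895 genes at 1 TPM or more, so as a list they lay near the middle of the expressed genes. Prom1 was above 88.8% of those genes and Llgl1 above 83.8%, while Crb2 was above 37.6% and Pard6b above 25.5%.

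**Figure D1:**
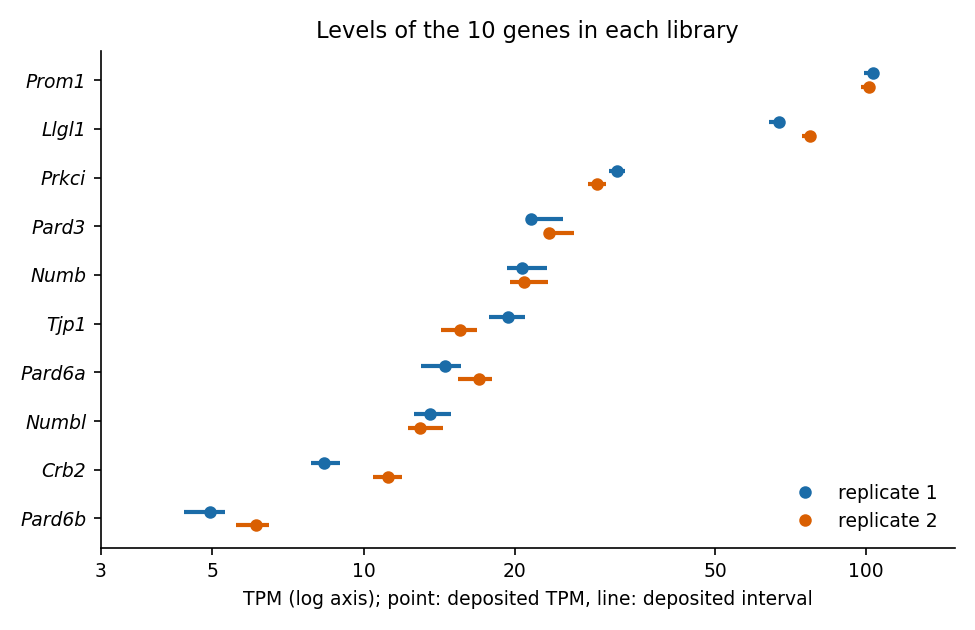
TPM of the 10 genes on a log axis, 1 row per gene, with replicate 1 in blue and replicate 2 in orange; points are the deposited TPM and lines the deposited interval. Prom1 and Llgl1 stand above the rest, Pard6b is lowest, and the points of the middle genes from Pard3 to Numbl lie between 12.97 and 23.4 TPM.

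The order of mean levels was Prom1, Llgl1, Prkci, Pard3, Numb, Tjp1, Pard6a, Numbl, Crb2 and Pard6b. Of the 9 steps in this order, 5 were wider than the deposited TPM intervals in both libraries. These were the steps among the highest 4 genes and the last 2 steps, from Numbl to Crb2 and from Crb2 to Pard6b. The steps from Pard3 to Numb, Numb to Tjp1, Tjp1 to Pard6a and Pard6a to Numbl were separated in 1 library only. The order of neighbours among those 5 genes is therefore not fixed. Genes further apart in it could still be separated in both libraries, as Pard3 was from Tjp1 and Numb from Pard6a and Numbl. In the plot of levels by library the unseparated steps show as overlapping lines in the middle rows.

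Pard3 encodes the scaffold that recruits the PAR complex to the apical junction (mm10 chromosome 8, 127063893 to 127612286, plus strand). It had 21.5 TPM in replicate 1 and 23.4 in replicate 2, on 2890 and 3590 counts. The deposited interval lies around a second estimate, the posterior mean, and ran from 21.7 to 24.9 TPM in replicate 1, just above the TPM printed. Its relative Pard3b had 7.36 and 6.68 TPM, so Pard3 was 3.17-fold higher on TPM + 0.1, with intervals apart in both libraries.

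Pard3 RNA was divided between a long and a short form. The long transcript Pard3-209 has 25 exons and 4002 coding bases and took 51.7% and 50.4% of the gene's TPM. The short transcript Pard3-226 has 16 exons and 2223 coding bases and took 34.4% and 28.2%. Their intervals did not overlap in either library. All transcripts with the short form's coding end together made up 35.1% ± 1.15 (SD, n = 2), and those with the long form's end 56.2% ± 0.755. The short form runs into its own last exon, which is shown because it replaces the whole later part of the protein. It starts at chr8:127400398, and coding ends after 5 bases of it. The 15 bases printed before that position come from the preceding exon, as joined in the RNA. The stop codon is in capitals, with 15 bases of the transcript on either side of the stretch chr8:127400398-127400405 (mm10, plus strand):
Pard3-226 end: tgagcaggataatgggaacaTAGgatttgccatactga

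Of the other Pard3 transcripts, only Pard3-225 reached 5% in a library, with 1.57% and 6.10% on 4.74 and 23.9 counts. It shares the short form's coding end. A 45-base coding exon late in the long form (chromosome 8, 127410729 to 127410773) was included in 96.2% ± 1.68 (SD, n = 2) of the TPM that could show it, and a 39-base exon earlier on in 97.8% ± 1.38. Skipping of either was therefore rare in both pools.

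PAR6 proteins are the adaptors that hold the atypical protein kinase C and bind CDC42. Pard6a (chromosome 8, 105701148 to 105703496, plus strand) had 14.5 and 16.95 TPM on 455 and 635 counts. Pard6b (chromosome 2, 168081004 to 168101203, plus strand) had 4.94 and 6.12 TPM on 436 and 647 counts. Pard6a was thus 2.82-fold above Pard6b, with the same order in both libraries. The third family member, Pard6g, was far above both, at 66.3 and 63.5 TPM. It exceeded Pard6a 4.11-fold and Pard6b 11.6-fold, so most of the PAR6 RNA measured came from a gene outside the 10.

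Pard6a RNA came almost evenly from 2 first exons. Pard6a-201 took 54.6% and 54.8% of the gene and Pard6a-202 took 45.4% and 45.2%. Their deposited intervals overlapped in both libraries (5.24 to 10.3 against 4.08 to 9.00 TPM in replicate 1), so neither start can be called the stronger. This was the exception among 9 members with more than 1 transcript: in the other 8 the leading transcript lay above the second beyond the intervals in both libraries, which held for 70.2% of comparable genes. The coding parts of the 2 first exons are shown because they give the protein different beginnings. The start codon is in capitals, at chr8:105701741-105701803 for Pard6a-201 and chr8:105701303-105701317 for Pard6a-202 (mm10, plus strand), and both lengths, 63 and 15 bases, are multiples of 3:
Pard6a-201 start: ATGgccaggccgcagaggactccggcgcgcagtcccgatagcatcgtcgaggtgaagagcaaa
Pard6a-202 start: ATGagagcgatccag

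RefSeq (GRCm38.p6) lists 2 start regions for Pard6a, at chr8:105700898-105701197 for the upstream and chr8:105701397-105701696 for the downstream start. Each window runs from 250 bases before a start to 50 after it. CG pairs are in capitals, since both windows are rich in them: the upstream window holds 22 and the downstream window 26, beside a median of 7 over 32851 windows of the same length. In all, 76.9% of those windows had fewer than 22 and 83.1% had fewer than 26.
Pard6a upstream start: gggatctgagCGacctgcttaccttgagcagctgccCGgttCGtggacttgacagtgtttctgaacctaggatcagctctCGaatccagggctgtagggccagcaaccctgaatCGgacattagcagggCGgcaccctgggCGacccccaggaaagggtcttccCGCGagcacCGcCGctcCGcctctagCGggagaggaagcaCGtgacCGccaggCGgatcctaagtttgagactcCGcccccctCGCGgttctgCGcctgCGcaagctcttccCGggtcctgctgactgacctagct
Pard6a downstream start: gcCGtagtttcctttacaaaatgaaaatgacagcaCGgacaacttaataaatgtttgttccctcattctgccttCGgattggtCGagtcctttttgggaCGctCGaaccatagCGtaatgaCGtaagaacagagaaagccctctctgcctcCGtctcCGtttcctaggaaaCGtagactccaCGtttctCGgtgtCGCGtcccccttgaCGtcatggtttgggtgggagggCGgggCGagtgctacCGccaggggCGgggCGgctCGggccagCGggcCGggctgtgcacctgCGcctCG

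Prkci encodes atypical protein kinase C iota, the kinase of the PAR complex (chromosome 3, 30995747 to 31052959, plus strand). It had 31.97 TPM in replicate 1 and 29.2 in replicate 2, on 3919 and 4217 counts, and was 2.14-fold above its relative Prkcz (14.2 ± 0.318 TPM). A single transcript, Prkci-201, took 99.2% and 97.8% of the gene. The kinase gene thus stood above the Pard3 gene in both libraries and above each PAR6 member, although below Pard6g.

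Crb2 encodes the Crumbs protein of neural tissue, a transmembrane protein whose short tail binds PALS1 and PAR6 (chromosome 2, 37776249 to 37799103, plus strand). It had 8.34 and 11.2 TPM on 1389 and 2117 counts, and the libraries' intervals did not overlap. It was the main Crumbs gene here: Crb1 had 1.07 and 1.40 TPM, and Crb3, the form of most other epithelia, 0.600 and 0.920 TPM on 16 and 23 counts. Crb2 was 7.37-fold above Crb1 and 11.6-fold above Crb3 on TPM + 0.1, or 4.79-fold and 6.09-fold on TPM + 1. The protein-coding transcript Crb2-201 took 99.1% and 93.7%, and the noncoding Crb2-202 had 0 and 8.27 counts.

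Llgl1 encodes the LGL protein that is phosphorylated by the atypical kinase and kept out of the apical domain (chromosome 11, 60699723 to 60714186, plus strand). It had 66.95 and 77.3 TPM on 7425 and 10256 counts, second among the 10 genes. Llgl2 had 1.84 and 1.90 TPM, 36.6-fold lower (25.4-fold on TPM + 1). Both Llgl2 values lay under their deposited intervals (1.87 to 3.63 and 2.19 to 3.87 TPM). With the posterior mean in place of TPM the log2 ratio was 4.58, against 5.19 on TPM + 0.1. Llgl1, the basolateral counterpart, was also more abundant as RNA than the kinase that acts on it, by 2.36-fold in mean TPM.

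Most Llgl1 RNA was assigned to a form that keeps a short intron near its end. Llgl1-202, which keeps it, took 70.0% and 70.6%, and Llgl1-201, which removes it, took 28.9% and 28.3%, with intervals apart in both libraries. Although it keeps the intron, Llgl1-202 is the shorter transcript (4268 against 4303 bases), so the 2 also differ elsewhere. Their shares therefore do not measure the keeping of this intron alone. The 87-base intron is shown because it decides where the protein ends: Llgl1-202 has 3108 coding bases and Llgl1-201 has 3186. The intron is chr11:60713042-60713128 (mm10, plus strand), printed with 15 exon bases on either side and with the stop codon of Llgl1-202 in capitals. The stop codon begins at the second base of the intron.
Llgl1 kept intron: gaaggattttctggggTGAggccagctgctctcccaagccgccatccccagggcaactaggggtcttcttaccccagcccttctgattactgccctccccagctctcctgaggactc
The antisense gene Flii (2712 and 3738 counts) overlaps the last 64 bases of Llgl1 and Dennd1a (486 and 651 counts) the last 113 of Crb2. The sources used here do not say whether counting used strand, so the reads of these stretches are uncertain.

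**Figure D2:**
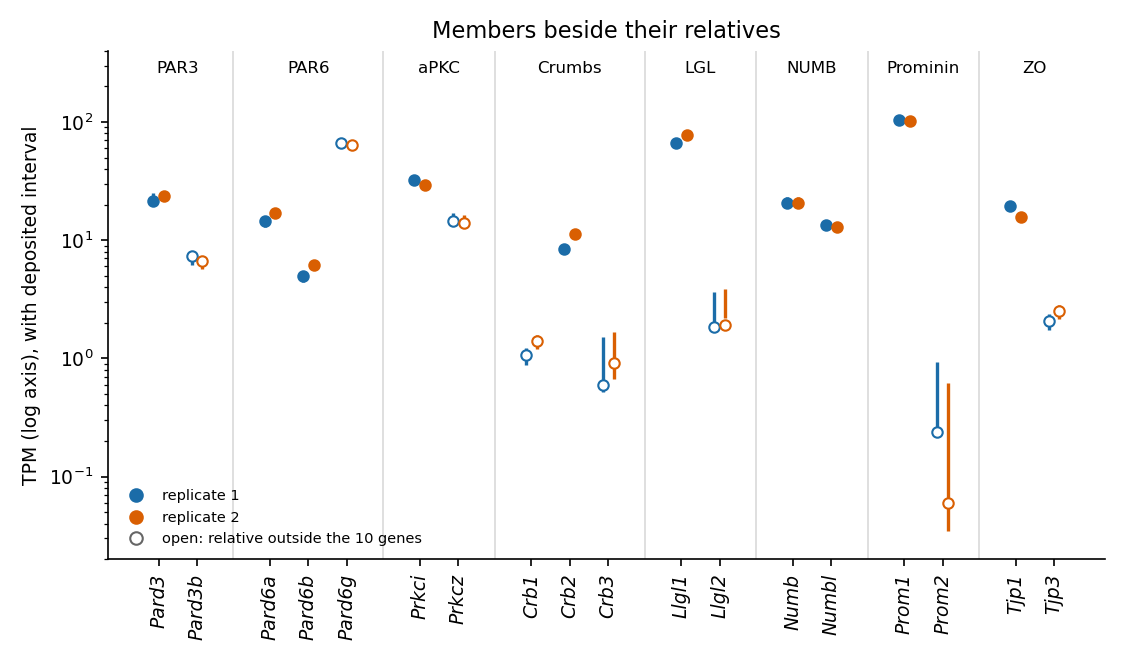
TPM (log axis) of the 10 genes, filled, and their relatives outside the list, open, by protein family, with deposited intervals and 1 colour per library. Pard6g lies above Pard6a and Pard6b, and Llgl2, Crb1, Crb3 and Prom2 lie far below Llgl1, Crb2 and Prom1.

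The 11 pairs of relatives described here were each separated by their intervals, the same way, in both libraries, as the plot of families shows. Numb and Numbl, the closest of these pairs, differed 1.56-fold.

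Numb (chromosome 12, 83794034 to 83921934, minus strand) had 20.7 and 20.8 TPM on 1583 and 1841 counts, the smallest SD in TPM of the 10 genes. Numbl (chromosome 7, 27258433 to 27282144, plus strand) had 13.5 and 12.97 TPM on 1004 and 1172 counts. For both genes the 2 pools' values overlapped within their intervals. Numbl was almost a single transcript, Numbl-201 with 90.2% and 94.96%.

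By TPM, Numb was the most divided of the 10 genes, with 5 transcripts at 5% or more. The coding transcript Numb-204 led with 47.3% and 49.4%. Next came Numb-203 with 27.3% and 23.0%, which the annotation classes as a target of nonsense-mediated decay, the pathway that destroys RNAs with early stop codons. Numb-208 (9.77% and 12.2%), the noncoding Numb-205 (8.60% and 9.69%) and Numb-202 (7.01% and 5.64%), also classed as a decay target, followed. Transcripts of protein-coding class made up 59.4% ± 3.24 of Numb TPM (SD, n = 2), and on those alone Numb had 12.3 ± 0.735 TPM, level with Numbl (12.3 ± 0.0778 TPM).

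NUMB protein exists in forms with and without inserts in its phosphotyrosine-binding domain and its proline-rich region, and the long proline-rich form is known from dividing cells. Both inserts are cassette exons, meaning exons that are either included or skipped, and their sequences are shown because they define these forms. The exon is in capitals and 15 bases of each neighbouring exon are in lower case. The exon of the proline-rich region is chr12:83797197-83797343 and that of the binding domain is chr12:83825259-83825291 (mm10, minus strand, sequence as in the RNA). Their lengths, 147 and 33 bases, are multiples of 3.
Numb 147-base exon: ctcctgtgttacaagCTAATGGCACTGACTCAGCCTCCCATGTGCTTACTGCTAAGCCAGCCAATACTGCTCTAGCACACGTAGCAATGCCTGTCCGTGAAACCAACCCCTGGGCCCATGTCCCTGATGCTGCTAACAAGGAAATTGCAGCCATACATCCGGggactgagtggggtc
Numb 33-base exon: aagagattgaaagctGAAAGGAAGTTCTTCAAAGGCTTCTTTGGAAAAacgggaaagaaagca

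Inclusion is the TPM of transcripts with the exon as a percentage of those plus the transcripts that join its neighbours directly. The 147-base exon was included in 42.1% and 36.7%, or 39.4% ± 3.78 (SD, n = 2). The 33-base exon was included in 26.2% and 26.6%, or 26.4% ± 0.257. Among the transcripts that could show each exon, the forms without it were the more abundant in each pool. For the 33-base exon the including side held 16.8% and 17.9% of Numb TPM and the skipping side 47.3% and 49.4%. The rest of Numb TPM was on neither side.

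These Numb values lean on the transcript models. All of the TPM with the 147-base exon was on Numb-203 and Numb-202. The full coding models that hold it, Numb-207 and Numb-210, hold nothing beyond the coding sequence and its stop codon (1962 and 1929 bases) and were at 0 TPM, so with transcripts of protein-coding class alone its inclusion was 0%. For the 33-base exon the including transcripts Numb-208 and Numb-202 had intervals reaching almost to 0 (0.000468 to 2.70 TPM for Numb-208 in replicate 1). Its inclusion was 14.1% ± 1.39 when counts in place of TPM were used. An 85-base noncoding exon ahead of the start codon was included in 54.7% ± 0.505.

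Prom1 (chromosome 5, 43993620 to 44102032, minus strand) was the most abundant of the 10 genes, with 103 and 101 TPM on 9799 and 11520 counts. Its relative Prom2, a protein of other epithelia, had 0.240 and 0.0600 TPM on 29 and 2 counts. The fold between them depends on the added constant, at 439 on TPM + 0.1 and 90.04 on TPM + 1. In both libraries Prom1 was above the progenitor genes Sox2 (33.5 and 33.2 TPM) and Nes (52.3 and 63.7 TPM) and below Vim and Fabp7.

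Prom1 RNA was carried by 2 transcripts. Prom1-202 took 54.9% and 56.3% and Prom1-207 took 44.2% and 42.6%, with intervals apart in both libraries. They have 28 and 24 exons, and one difference is a 27-base coding exon known from splice forms of the protein, chr5:44058626-44058652 (mm10, minus strand). It is printed in capitals, between 15 bases of each neighbour, because forms with and without it were both abundant:
Prom1 27-base exon: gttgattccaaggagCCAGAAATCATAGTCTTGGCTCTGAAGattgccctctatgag
Inclusion was 55.3% and 57.0%, or 56.1% ± 1.15. An 18-base exon elsewhere in the gene was included in 0.426% and 0.642%. The deposited length of Prom1-202 is 3743 bases against 3966 in the annotation used for its exons, so its exon content in the authors' version is an assumption. The antisense gene Gm16401 (114 and 144 counts) overlaps the first 1591 bases of the Prom1 locus.

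Tjp1 (chromosome 7, 65296165 to 65527781, minus strand) had 19.4 TPM in replicate 1 and 15.6 in replicate 2, on 2735 and 2784 counts, and the intervals did not overlap. Its relative Tjp3 (ZO-3) had 2.07 and 2.52 TPM, 7.33-fold under Tjp1 (5.59-fold on TPM + 1), with intervals apart in both libraries.

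Part of the Tjp1 level was a short noncoding transcript. Tjp1-203, of 699 bases, took 25.1% and 19.9% of Tjp1 TPM but only 2.86% and 2.14% of its counts, since TPM divides by length. Transcripts of protein-coding class had 14.5 and 12.5 TPM. With them alone the middle of the order changed: Pard6a moved from the seventh to the fifth place and Numb from the fifth to the seventh, while the other 8 genes kept theirs.

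The alpha exon of ZO-1, a 240-base coding exon at chr7:65314093-65314332 (mm10, minus strand), separates the alpha-plus from the alpha-minus form. It is shown because it had the highest inclusion of the 5 exons with at least 5% of gene TPM on each side, in capitals with 15 bases of each neighbour:
Tjp1 240-base exon: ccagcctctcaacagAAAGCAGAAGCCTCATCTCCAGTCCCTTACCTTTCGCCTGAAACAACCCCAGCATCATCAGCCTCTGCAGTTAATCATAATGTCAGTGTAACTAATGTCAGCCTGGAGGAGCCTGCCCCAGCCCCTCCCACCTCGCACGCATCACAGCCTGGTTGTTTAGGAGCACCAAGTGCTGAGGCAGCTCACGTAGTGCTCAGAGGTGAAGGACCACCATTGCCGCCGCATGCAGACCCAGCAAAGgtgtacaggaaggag
Inclusion was 87.1% in replicate 1 and 87.0% in replicate 2, so the alpha-plus form predominated. The including transcript Tjp1-202 had 12.7 and 10.8 TPM and the skipping transcript Tjp1-201 had 1.88 and 1.62 TPM.

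**Figure D3:**
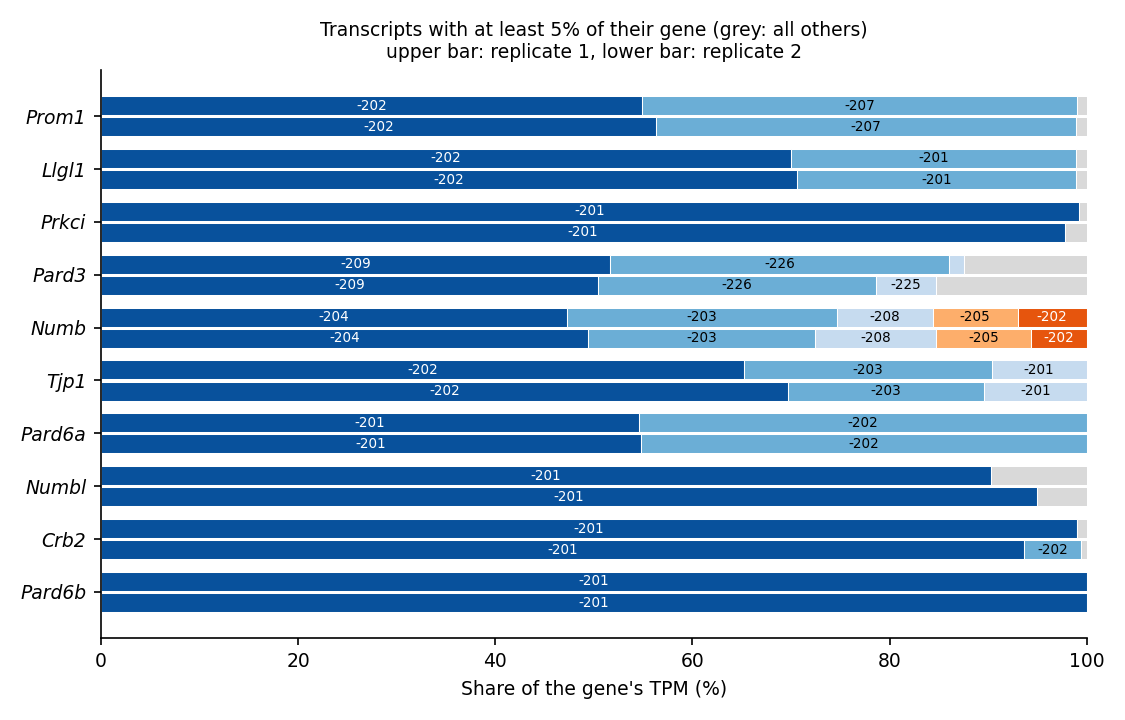
Share of each gene's TPM (%) held by its transcripts with at least 5% in a library, labelled by transcript number, with all others in grey; the upper bar of each gene is replicate 1. Prkci, Numbl, Crb2 and Pard6b are close to 1 transcript, whereas Numb has 5 and Pard3 a grey remainder of many small ones.

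Among the 70 transcripts of the 10 genes, 22 reached 5% of their gene in a library and 26 were at 0 TPM in both. The leading transcript was the same in both libraries for all 9 members with more than 1 transcript, as for 91.4% of comparable genes. The plot of transcript shares shows the paired bars of each gene to be nearly alike. Of the 22 transcripts, 5 had intervals that did not overlap between the libraries, beside 12.0% of such transcripts overall.

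**Figure D4:**
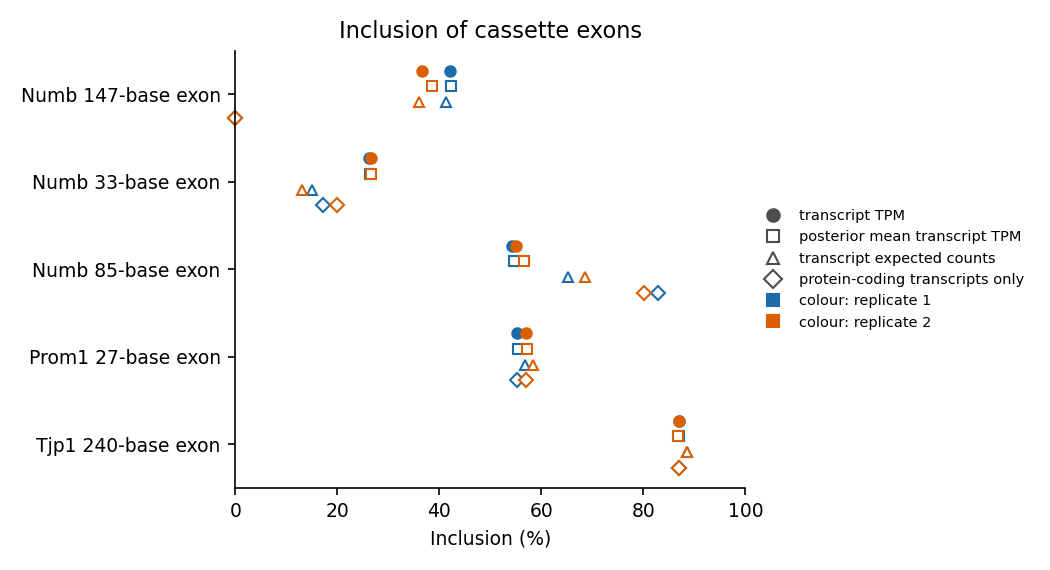
Inclusion (%) of the 5 cassette exons with at least 5% of gene TPM on each side, for replicate 1 (blue) and replicate 2 (orange); filled circles are the reported values and open symbols other ways to compute them. The Prom1 and Tjp1 exons move little, while the 3 Numb exons move more, the 147-base exon to 0% with protein-coding transcripts only. That setting could not move the Prom1 and Tjp1 exons, whose including and skipping transcripts are all protein-coding.

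Of 15 exons in the 10 genes that had both an including and a skipping transcript, 5 had at least 5% of gene TPM on each side. They belonged to Numb, Prom1 and Tjp1, and 4 of them were coding. The plot of exon inclusion sets their values side by side.

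The 65 partner genes listed for these pathways were also largely present, with 61 at 1 TPM in both libraries and a median of 17.8 TPM. Among partners of the apical complexes 12 of 14 reached it, led by the small GTPases Cdc42 (559 ± 18.7 TPM) and Rac1 (283 ± 4.11 TPM), which activate the PAR complex, and by Lin7c (122 ± 14.6 TPM), a Crumbs complex adaptor. Mpp5, which encodes PALS1, the link from Crumbs to its complex, had 18.4 and 17.2 TPM, above Crb2. Patj, the next adaptor, had 5.52 and 5.58 TPM. All 11 basolateral genes were present, with the PAR1 kinases Mark3 (43.8 ± 0.785 TPM) and Mark2 (37.9 ± 6.36 TPM) and the scaffold Erbin (21.5 ± 0.375 TPM) highest. Llgl1 exceeded all of them.

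Of the 2 junction lists the adherens junction genes were the more abundant, with all 10 present and a median of 40.9 TPM. They were led by Ctnnb1 (beta-catenin, 621 ± 7.68 TPM), Cdh2 (N-cadherin, 181 ± 9.77 TPM) and Ctnna1 (116 ± 3.83 TPM). The tight junction list had a lower median of 3.36 TPM over 9 genes, all present. Its highest were the adhesion molecules Jam3 (130 ± 1.94 TPM) and Jam2 (75.9 ± 2.98 TPM), both also made by blood vessels, while Ocln, the gene of the tight junction protein occludin, had 1.63 and 1.12 TPM. Tjp1 thus stood above the median of the tight junction genes and below that of the adherens junction genes.

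Of 14 genes that work with NUMB or in the same endocytic step, 13 reached 1 TPM, with a median of 42.1 TPM. The AP-2 adaptor subunits Ap2m1 (471 ± 16.7 TPM), Ap2s1 (222 ± 14.3 TPM) and Ap2b1 (95.8 ± 4.57 TPM) were highest. Notch1, the receptor NUMB restrains, had 31.1 and 36.5 TPM, above Numb in both libraries. The ubiquitin ligase genes Itch and Lnx2 had 41.6 ± 2.06 and 6.61 ± 0.530 TPM, and Lnx1, the exception of the list, had 0.410 and 0.650 TPM. In the apical membrane list 6 of 7 were present, led by Rab11a (219 ± 1.92 TPM), a GTPase of recycling endosomes, and by the membrane linkers Rdx (160 ± 12.5 TPM) and Msn (91.5 ± 0.841 TPM). The exception was Prom2.

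The 2 pools were then compared, to see how far the 10 genes varied between biological replicates. A two-sided exact binomial test on counts, with Benjamini-Hochberg adjustment over 17148 genes, compares these 2 libraries and not conditions. None of the 10 genes differed by 2-fold or more at an adjusted p under 0.05, and 2.82% of all genes did (1.30% higher and 1.52% lower in replicate 2). Without a minimum fold 6 of 10 passed, 4 higher and 2 lower in replicate 2, against 17.2% of genes higher and 17.8% lower (35.0% in all). These shares were not matched for counts, and with more counts a smaller ratio passes. Each of the 10 genes had at least 436 counts in each library, while all genes were tested from a summed count of 20. Under spike-in scaling the split of all genes was 4827 higher and 1695 lower, and that of the 10 genes 5 higher and 2 lower. The 6 genes had an unadjusted p under 0.05. With an assumed coefficient of variation of 0.1 between replicates (edgeR exact test), 0 of 10 passed at any fold. Of all 17148 genes 155 passed that test at 2-fold or more, a stricter rule than the one used for the 10 genes. The share of all genes that passed it at any fold was not counted, so the 0 of 10 has no matching share beside it.

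Those 6 changes were small. Crb2 rose most in replicate 2, by a log2 ratio of 0.35 (exact 95% interval 0.26 to 0.45, exact binomial adjusted p = 2.71e-11). Pard6b was higher by 0.31 (0.14 to 0.49), Pard6a by 0.23 (0.05 to 0.40) and Llgl1 by 0.21 (0.17 to 0.26). Tjp1 fell by 0.23 on the log2 scale (exact binomial adjusted p = 7.68e-08), and Prkci fell by 0.15. Prom1 (-0.02), Numb (-0.04), Numbl (-0.03) and Pard3 (0.06) had intervals that include 0. These intervals cover counting error only. The labels call the libraries biological replicates, and each is a pool, so no spread between embryos can be given.

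**Figure D5:**
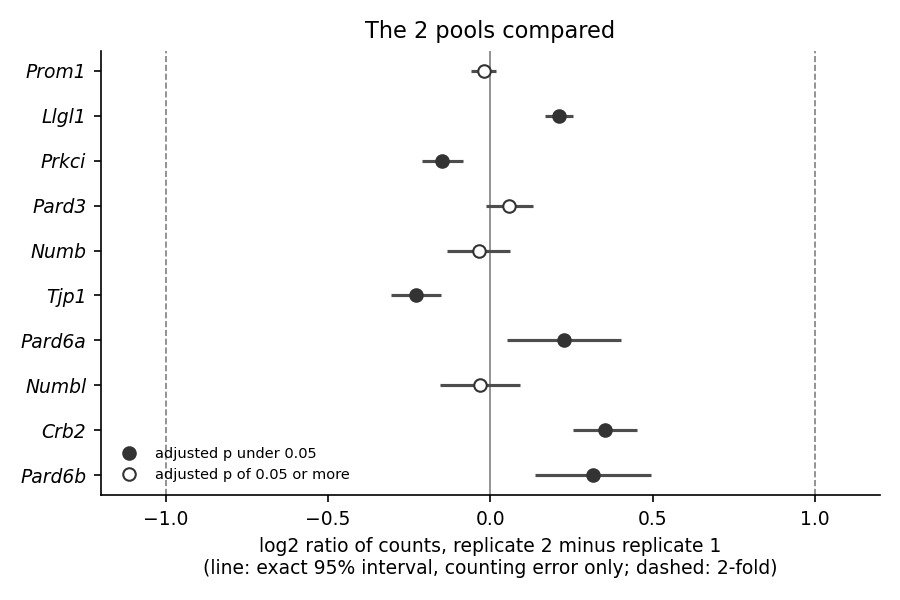
Log2 ratio of counts, replicate 2 minus replicate 1, for each of the 10 genes, with exact 95% intervals from counting error; filled points have an adjusted p under 0.05 and dashed lines mark 2-fold. All 10 points lie between -0.23 and 0.35, far inside the dashed lines.

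The deposited TPM intervals gave a similar picture with 1 gene fewer. For 5 genes they did not overlap between the libraries, Llgl1, Crb2 and Pard6b higher and Prkci and Tjp1 lower in replicate 2, whereas 22.4% of genes at 1 TPM did not overlap (11.1% higher, 11.4% lower). For Pard6a they did overlap (13.0 to 15.6 and 15.4 to 17.98 TPM). Among the 65 partner genes 1 differed by 2-fold or more, Prom2, lower in replicate 2 on 29 and 2 counts, against 2.82% of all genes. Without a minimum fold 36 of the 65 passed, 16 higher and 20 lower, against 35.0% of all genes (17.2% higher and 17.8% lower), again not matched for counts. The median log2 ratio was 0.02 for the 10 genes, -0.01 for the partners and 0.00 for all genes tested.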

How the data were processed

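Total RNA-seq libraries from 2 pools of embryonic midbrain were analysed. The labels give mirVana extraction, ERCC spike-ins and a cited Smart-seq method. Such libraries are amplified, and the exact intervals on counts cover counting error only. Assembly mm10 and annotation M4 are named in the accompanying notes. No aligner or quantifier is named in the sources used here. Per the file headers, the authors deposited expected counts, TPM and FPKM with interval bounds, which are a signal of unstated level, and the percent of a gene's TPM on each transcript. Spike-ins held 15.2% and 14.8% of TPM. The posterior standard deviation of counts was not used.

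Symbols, exons and transcript classes came from GENCODE M21 (mm10), matched by identifier, and 42462 of 43346 genes had a symbol. All 70 transcripts of the members matched, and 5, all of Prom1, had another length there. Sequences came from M21 transcripts and RefSeq. Members, lists and tests were chosen with earlier results of these data known. Any member, listed gene or relative could be named, with at least the 3 highest of each list, and transcripts and exons from 5% of gene TPM, and exons below it are named as rarely used. The Pard6a start regions and the Pard3 and Llgl1 ends were chosen after their values were seen, as were the Pard3 and Prom1 exons below that share. One listed gene, and its pair, is not reported here by name, but it is counted in its list.

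Expected counts were rounded and tested where the summed count was at least 20, with TMM-scaled library sizes (edgeR 4.0.16) and a prior count of 1. The test was checked on simulated counts with known changes. DESeq2 1.42.0 size factors, total counts and spike-in scaling were alternatives. R 4.3.3, Python 3.11.15, scipy 1.17.1, numpy 2.4.6, pandas 2.3.3 and matplotlib 3.10.9 were used.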

Additional observations from a re-analysis of the deposited data

How the results depend on the processing

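With no minimum log2 ratio the share of all genes that differed between the pools went from 2.82% to 35.0%. The members that differed went from 0 to 6 and the partner genes from 1 to 36. Under DESeq2 size factors, spike-in scaling and the edgeR exact test these counts stayed at 0 and 1, and total counts or no filter also left the members at 0. Spike-in scaling moved log2 ratios up by 0.06 and, without a minimum fold, put 5 members higher and 2 lower, with Pard3 added, and turned the sign of the ratios of Prom1, Numb and Numbl, none of which passed. Of the 9 steps in the order of levels, 5 were separated in both libraries, and 6 to 8 when either replicate was left out. With 1 library the rule asks for less, so this count could only stay or rise. The counts of members and partners at 1 TPM, relatives separated, leading transcripts shared and exons with both forms moved by less than 1.5 times in every alternative run. Numb exon inclusion depended most on the setting, at 0%, 18.5% and 81.5% for the 147-, 33- and 85-base exons with protein-coding transcripts only and 38.6%, 14.1% and 66.9% with counts. No fold between relatives changed direction with TPM + 1 or the posterior mean. The protein-coding transcript setting for levels was chosen after seeing the data. No paired analysis was possible because there is 1 group. Depth limits Prom2, Crb3, Lin7b and Lnx1, each under 30 counts in a library.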
